A study of Mus musculus with 8 samples.

Results

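The mitochondrial genome of the mouse encodes 13 proteins, all of them subunits of the respiratory chain or of ATP synthase. The transcripts of these genes were selected by annotation alone, as rows on chromosome MT whose symbol started with mt-co, mt-nd, mt-atp or mt-cytb. In total, 11 of the 2783 transcripts in the count table met this rule, and they were all of the chromosome MT transcripts in it. They were mt-Nd1, mt-Nd2, mt-Nd3, mt-Nd4, mt-Nd5 and mt-Nd6, which encode subunits of complex I, mt-Cytb, which encodes cytochrome b of complex III, mt-Co1 (mt-co1 in the table), mt-Co2 and mt-Co3, the catalytic core of complex IV, and mt-Atp6, a subunit of complex V. The genes mt-Nd4l and mt-Atp8 had no transcript of their own in the table. Their coding sequences overlap those of mt-Nd4 and mt-Atp6, with which they share an RNA. Over the 8 libraries the 11 transcripts were covered by 63807 reads, which was 10.3% of all reads in the count table. Totals and shares of reads below refer to that table.

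Whole testes of adult male mice on a C57BL/6 background were compared. The animals carried Tent5c wt/wt (wt) or Tent5c dcat/dcat (dcat), in which both copies of the cytoplasmic poly(A) polymerase TENT5C lack catalytic activity. Each genotype received a single intraperitoneal injection of vehicle (DMSO in water) or of busulfan at 20 mg/kg, an alkylating drug that depletes germ cells, and testes were collected 4 weeks later. Each of the 4 groups (wt vehicle, wt busulfan, dcat vehicle, dcat busulfan) held 2 mice and 2 libraries, and all mice came from 1 cohort. RNA bound to oligo(dT) beads was read by Nanopore direct RNA sequencing, so that a read comes from a single RNA molecule and carries its own poly(A) tail length. Of the rows of the 11 transcripts, 58 had a read name that occurred more than once, among them 23 names listed under both mt-Cytb and mt-Nd6. Because whole testis was read, fewer cells of a type and less RNA per cell cannot be told apart. The allele is present in every cell of the dcat mice, and the samples hold all cell types of the organ.

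Mitochondrial messenger RNAs are made as long polycistronic precursors from both strands of the mitochondrial genome. Transfer RNAs that lie between the coding sequences are cut out, which frees the messenger RNAs, and the mitochondrial poly(A) polymerase MTPAP then adds a short tail. Several of the reading frames end before a full stop codon, and the first adenosines of the tail complete it. TENT5C acts outside mitochondria, on nuclear transcripts.

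The annotated 3′ ends of 6 of the transcripts are shown, and the base at which the tail of a read starts was not mapped. The 30 last bases of the annotated transcript are given 5′ to 3′ on the coding strand, with the stop letters that the genome encodes in capitals. Sequences are from the RefSeq mitochondrial genome of GRCm38.p6 and matched the GENCODE vM21 transcripts. The first 2 have a whole stop codon, the next 3 end in a lone T, and in the last the stop codon runs into the following transfer RNA.
mt-Co1: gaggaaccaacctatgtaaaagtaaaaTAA
mt-Co2: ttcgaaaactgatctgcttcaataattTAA
mt-Co3: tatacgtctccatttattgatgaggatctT
mt-Cytb: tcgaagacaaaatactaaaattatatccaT
mt-Nd4: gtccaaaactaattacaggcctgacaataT
mt-Nd1: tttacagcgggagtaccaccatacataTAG

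On GRCm38, chromosome MT, forward strand, these ends lay at 6843 to 6872 (mt-Co1), 7667 to 7696 (mt-Co2), 9361 to 9390 (mt-Co3), 15259 to 15288 (mt-Cytb), 11515 to 11544 (mt-Nd4) and 3678 to 3707 (mt-Nd1). All of them were coding sequence, and the transcripts had 1 exon each and no annotated untranslated region. For mt-Co3, mt-Nd4 and mt-Cytb, RefSeq records that added adenosines complete the stop codon. The stop codons of mt-Nd1 and mt-Nd2 overlapped the next transfer RNA gene by 2 bases. The gene mt-Nd6 is the 1 member on the reverse strand (13552 to 14070), and it overlaps the end of mt-Nd5 by 14 bases. The sources used here did not state that reads were counted by strand, so that reads of mt-Nd6 and of RNA antisense to it cannot be told apart.

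In the count table the 8 libraries held 29574 to 129074 reads, and the dcat vehicle libraries were the smallest and the largest of them. Marker genes of testis cell types were read in all libraries. After busulfan, 9 of 9 Leydig, 7 of 7 Sertoli, 4 of 4 peritubular and 4 of 4 macrophage markers rose in each genotype. In wt, all 4 spermatocyte, 6 round spermatid and 14 late spermatid markers fell, and in dcat 3, 6 and 11 of them fell. The summed late spermatid markers went from 101405 to 111134 CPM (reads relative to the TMM-scaled library size) without busulfan to 7797 to 10951 CPM with it in wt testes, and from 88186 to 104979 CPM to 20168 to 36732 CPM in dcat testes (lowest to highest library). The summed Leydig markers went from 5434 to 5576 CPM to 43042 to 48776 CPM in wt testes and from 3618 to 6560 CPM to 23578 to 27602 CPM in dcat testes. The changes after busulfan described next went in parallel with these changes of the marker lists. Between genotypes after busulfan the Leydig and late spermatid sums did not overlap, while the mean mitochondrial share was 15.1% in both. The part of cell composition in these values was not tested.

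To ask what part of the polyadenylated RNA in the count table was mitochondrial, the reads of the 11 transcripts were summed in each library. The total of a library was its reads in that table. The paper lists more mapped reads for each library after its quality check, and shares of those were not computed. In the wt vehicle libraries the share of the 11 transcripts was 4.82% (4.64 to 5.01, Wilson interval at 95%) and 4.48% (4.33 to 4.64). In the wt busulfan libraries they made up 15.4% (15.1 to 15.6) and 14.8% (14.6 to 15.0). In the dcat vehicle libraries the values were 6.08% (5.81 to 6.36) and 4.38% (4.27 to 4.50), and in the dcat busulfan libraries they were 16.2% (15.9 to 16.5) and 14.0% (13.8 to 14.2). The intervals cover counting error only. All busulfan libraries lay above all vehicle libraries, as the stacked bars by library show. The share was 3.24 times as high after busulfan in wt (15.1% ± 0.400 against 4.65% ± 0.241, SD, n = 2 libraries per group) and 2.88 times as high in dcat (15.1% ± 1.55 against 5.23% ± 1.199). The exact permutation test over 2 against 2 libraries gave its smallest possible two-sided p, 0.333, in both. The genotypes overlapped under both treatments (difference of dcat and wt 0.579 percentage points after vehicle and -0.00878 after busulfan, exact permutation p = 1 in both). The sign of the first turned without dcat vehicle replicate 1 (-0.269), the less deeply sequenced library with the highest vehicle share. The sign of the second also turned without dcat busulfan replicate 2 (1.09), without wt busulfan replicate 1 (0.274), and in the ratio to nuclear reads (0.00608).

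**Figure D1:**
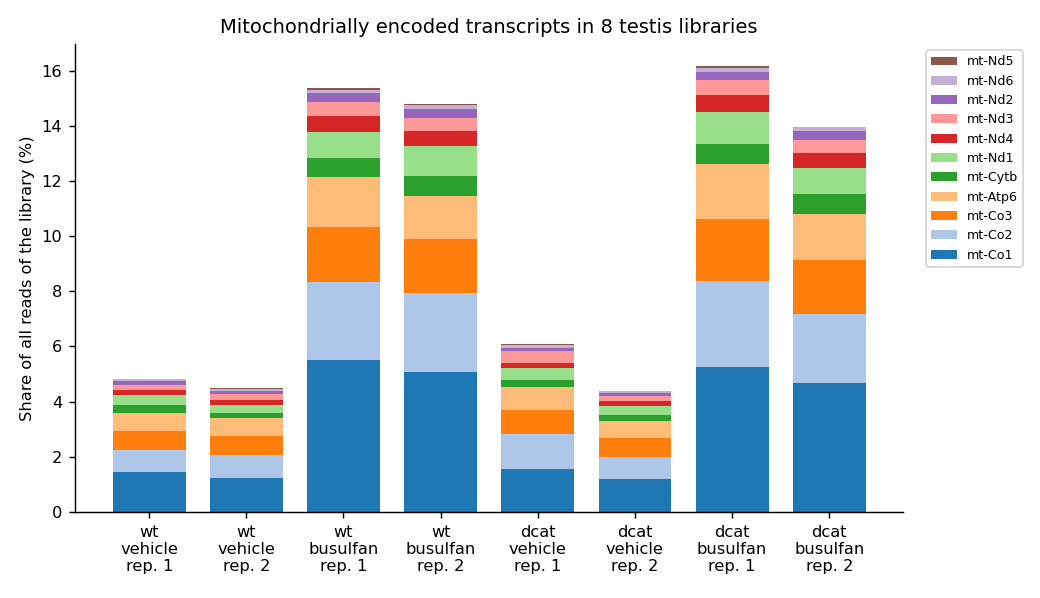
Share of the reads of a library in the count table (%) taken by each of the 11 mitochondrially encoded transcripts, stacked, for the 8 libraries (2 per group, rep. is the replicate number). The 4 vehicle libraries reach 4.38% to 6.08% and the 4 busulfan libraries 14.0% to 16.2%, with mt-Co1 as the broadest band in each.

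Each of the 11 transcripts was then compared on its own. In wt testes all 11 rose after busulfan, with log2 fold changes of 1.08 to 1.93 (edgeR quasi-likelihood test, adjusted p at most 0.0125), and in dcat testes 10 of 11 rose, with 0.82 to 1.87 among those 10. Of all 2783 transcripts, 35.4% were called higher in wt and 31.3% in dcat. The median log2 fold change was 1.47 over the 11 members in wt and 1.52 in dcat, beside 0.09 and 0.14 over all transcripts. With RLE scaling the medians of all transcripts were -0.03 and -0.08 and those of the members 1.35 and 1.32, so that the rise stood relative to all transcripts under both scalings. The interaction of genotype and busulfan was called for 0 of 11 members (0 at an unadjusted p under 0.05, and 0 by DESeq2), beside 0.323% of all transcripts.

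The complex IV subunits had the most reads. By TMM-scaled counts, the wt libraries had mt-Co1 at 14391 and 12611 CPM after vehicle and at 47481 and 55199 CPM after busulfan. The dcat libraries had it at 15365 and 12318 CPM, then at 51782 and 49208 CPM. Its log2 fold change after busulfan, 1.93 (SE 0.29, edgeR adjusted p = 4.11e-06) in wt and 1.87 (SE 0.29, adjusted p = 4.61e-05) in dcat, was the highest of the 11 in both genotypes, although its error overlapped those of several others. Next, mt-Co2 was at 7535 and 8736 CPM in wt testes given vehicle and at 24578 and 31088 CPM in those given busulfan. In dcat testes it was at 12379 and 8292 CPM, then at 30845 and 26375 CPM. The fitted fold change after busulfan was 3.42 in wt and 2.78 in dcat. For mt-Co3 the log2 fold changes were 1.47 (SE 0.29) and 1.46 (SE 0.29). Busulfan and vehicle libraries did not overlap for any of these 3. The share of all transcripts without overlap was not counted, and 35.4% of them were called higher in wt and 31.3% in dcat.

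Cytochrome b, the mitochondrial subunit of complex III, went from 2867 and 1902 CPM to 5994 and 8106 CPM with busulfan in wt testes, and from 2389 and 2364 CPM to 7081 and 7585 CPM in dcat testes. The log2 fold changes were 1.57 (SE 0.31) and 1.63 (SE 0.32). The transcript of mt-Atp6, which encodes the proton channel subunit of ATP synthase, rose by 1.27 (SE 0.29) in wt and 1.37 (SE 0.29) in dcat on the log2 scale. Both sets of 4 busulfan libraries lay above the vehicle libraries. That pattern was not counted over all transcripts, of which 35.4% were called higher in wt and 31.3% in dcat.

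The log2 fold changes of the complex I subunits lay between 1.08 and 1.71 for wt and between 0.70 and 1.62 for dcat testes. The best read of them, mt-Nd1, went from 3564 and 2946 CPM to 8219 and 11637 CPM with busulfan in wt testes, and from 4381 and 3195 CPM to 11625 and 9889 CPM in dcat testes. This was a log2 fold change of 1.61 (SE 0.31) in wt and 1.52 (SE 0.31) in dcat. The values for mt-Nd4 were 1.71 (SE 0.31) and 1.62 (SE 0.31), and those for mt-Nd2 were 1.26 (SE 0.32) and 1.53 (SE 0.33). The smallest changes were those of mt-Nd3 and mt-Nd6. The level of mt-Nd3 was 1898 and 2345 CPM without and 4620 and 4971 CPM with busulfan in wt testes, and 4016 and 1853 CPM without and 5138 and 4945 CPM with busulfan in dcat testes. Its log2 fold change was 1.17 (SE 0.34, adjusted p = 0.00329) in wt and 0.82 (SE 0.34, adjusted p = 0.0372) in dcat, and the dcat call was lost with RLE scaling (log2 fold change 0.63), by DESeq2 (0.61) and without dcat vehicle replicate 2 (0.42), among others. For mt-Nd6 it was 1.08 (SE 0.35, adjusted p = 0.00823) in wt and 0.70 (SE 0.35, adjusted p = 0.0842) in dcat. The wt call of mt-Nd6 was lost without wt busulfan replicate 2 (0.82). The least read member, mt-Nd5, had 10 and 9 reads without and 26 and 51 reads with busulfan in wt testes. In dcat testes it had 5 and 15 reads without and 30 and 29 with busulfan. Of the minimum that the paper describes, 10 reads in 2 replicates of a condition, mt-Nd5 fell short in both vehicle groups and met it only after busulfan. Its calls (1.38, SE 0.48, and 1.55, SE 0.50) were lost by DESeq2 in both genotypes (1.24 and 1.35), in wt without wt busulfan replicate 2 (1.10), and in dcat without dcat vehicle replicate 2 (1.31) or dcat busulfan replicate 1 (1.25).

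**Figure D2:**
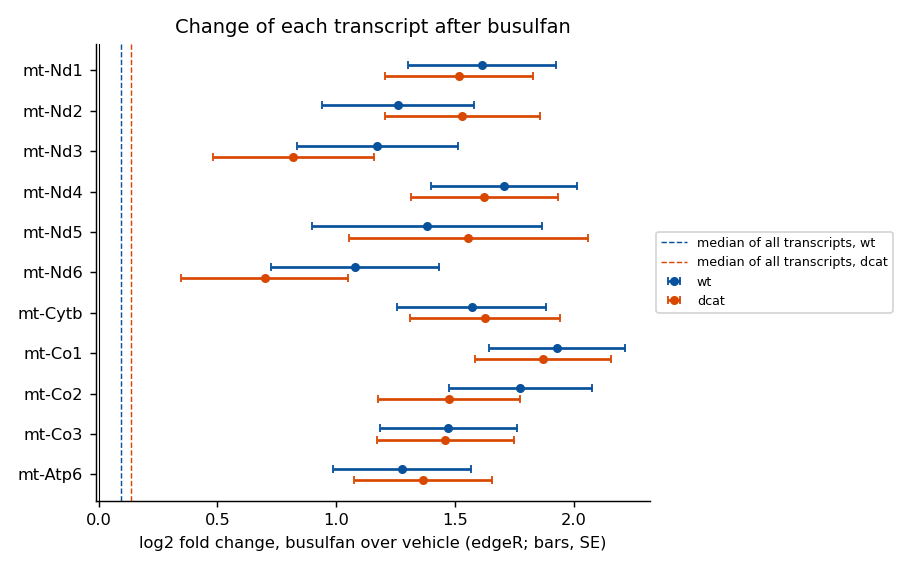
log2 fold change of each mitochondrially encoded transcript, busulfan over vehicle, in wt (blue) and dcat (orange) testes by edgeR, with bars of 1 SE and 2 libraries per group. All points lie right of the medians of all 2783 transcripts (dashed, 0.09 in wt and 0.14 in dcat), from 0.70 for mt-Nd6 in dcat to 1.93 for mt-Co1 in wt.

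Between genotypes, no member was called. After vehicle, dcat over wt gave log2 fold changes of -0.25 to 0.45 with 0 of 11 called (edgeR, 0 at an unadjusted p under 0.05 and 0 by DESeq2), and 0% of all transcripts were called. After busulfan the range was -0.08 to 0.21 with 0 of 11 called (adjusted p of at least 0.777, 0 at an unadjusted p under 0.05 and 0 by DESeq2), while 5.82% of all transcripts were called. The direction after busulfan depended on the scaling: 9 of 11 lay above 0 with TMM and 1 of 11 with RLE scaling, which lowered the median of all transcripts from 0.20 to 0.06.

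Levels of different members can be set side by side within a library. Per kilobase of transcript, the mean over the 8 libraries was highest for mt-Co2 (27381 CPM), followed by mt-Co1 (20903), mt-Atp6 (17839), mt-Co3 (17704), mt-Nd3 (10699), mt-Nd1 (7243), mt-Cytb (4184), mt-Nd4 (2709), mt-Nd6 (2137), mt-Nd2 (2113) and mt-Nd5 (153). Because each molecule is read once from its 3′ end, the share of reads was also set side by side, without length. By reads, mt-Co1 came first with 32.7% of the mitochondrial reads, then mt-Co2 (18.7%), mt-Co3 (13.9%), mt-Atp6 (11.95%), mt-Nd1 (6.93%), mt-Cytb (4.87%), mt-Nd4 (3.79%), mt-Nd3 (3.56%), mt-Nd2 (2.21%), mt-Nd6 (1.09%) and mt-Nd5 (0.274%). Both orders pool the treatments, and neighbours changed places between them. By mean share, mt-Nd3 (4.98%) stood above mt-Cytb (4.85%) in the vehicle libraries and below it in the busulfan libraries (3.29% and 4.79%). The 3 complex IV members and mt-Atp6 led both orders under each treatment.

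The make-up of the mitochondrial reads shifted after busulfan. Of these reads, mt-Co1 took 30.4%, 27.3%, 25.8% and 27.3% in the vehicle libraries (wt, then dcat) and 35.8%, 34.3%, 32.5% and 33.5% in the busulfan libraries, with no overlap between treatments. The share of mt-Atp6 was 13.8% to 14.5% over the 4 vehicle libraries and 10.4% to 12.5% over the busulfan libraries. For mt-Co3 these ranges were 14.1% to 15.8% and 13.1% to 14.0%, for mt-Nd3 4.00% to 6.73% and 3.09% to 3.48%, and for mt-Nd6 1.23% to 1.84% and 0.877% to 1.00%. Thus, by member reads alone, 1 share was higher and 4 were lower after busulfan without overlap, and the other 6 overlapped. This count rests on reads assigned to the members and depends on that assignment. Reads in the pseudogene contigs described next are left out. Those contigs held 22.0% to 26.0% of the reads of the mt-Co3 pair and 8.54% to 28.3% of the mt-Co1 pair. With the contigs counted with their members and in the total, the vehicle and busulfan libraries overlapped for mt-Co3. Within each genotype the smallest p that 2 against 2 libraries allow, 0.333 by the exact permutation test, was reached for the 5 shares without overlap in member reads. The shares sum to 100%, so that they are not independent of each other.

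Part of the mitochondrial RNA may be counted elsewhere in the table. An alignment of the deposited transcripts to the mitochondrial genome found 4 unprocessed pseudogenes on GRCm38 chromosome 1 (24613189 to 24616197, reverse strand) that copy stretches of members. Gm28661 (681 bases, mt-Co2), Gm10925 (678 bases, mt-Atp6, atp6-ps in the table) and Gm28437 (783 bases, mt-Co3) were identical to the mitochondrial sequence over their whole length. Gm29216 matched 483 bases of the 3′ end of mt-Co1 with 1 mismatch. Reads of the first 3 pairs cannot be assigned by sequence, and those of the Gm29216 pair differ at a single base. The 4 contigs held 9042 reads, 12.4% of the sum of the 11 members and the 4 contigs. Their share of the pair was 10.4% to 14.5% over libraries for Gm28661, 16.3% to 20.8% for Gm10925 and 22.0% to 26.0% for Gm28437. That of Gm29216 varied most, from 8.54% in dcat busulfan replicate 2 and 8.72% in wt vehicle replicate 1 to 19.9% in wt vehicle replicate 2 and 28.3% in dcat vehicle replicate 1. With the contig added, the ratio of mean CPM of mt-Co1, busulfan over vehicle, became 3.61 in place of 3.80 for wt and 3.14 in place of 3.65 for dcat. That of mt-Co2, mt-Co3 and mt-Atp6 changed by less, for example from 2.77 to 2.76 for mt-Co3 in wt. With the 4 contigs counted as mitochondrial, the share of reads was 5.10% to 7.35% in vehicle and 15.8% to 18.6% in busulfan libraries.

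The poly(A) tails of the mitochondrial reads were short and narrowly spread. Over all 63807 reads the mean was 66.3 nt (SD over reads 19.3 nt), the median was 64.3 nt, and the 5th and 95th percentiles were 44.5 and 91.6 nt. In total, 98.3% fell between 30 and 120 nt. Of the others, 209 reads were under 30 nt, 736 were between 120 and 210 nt and 140 were longer. The 557395 nuclear reads had a mean of 133 nt (SD 61.5 nt), and 41.5% of them fell between 30 and 120 nt. Nuclear reads are here all reads outside the 11 members, so they include the 9042 reads of the pseudogene contigs. The distributions by group show a single mitochondrial peak in each group, while the most frequent nuclear tail length differed between treatments.

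**Figure D3:**
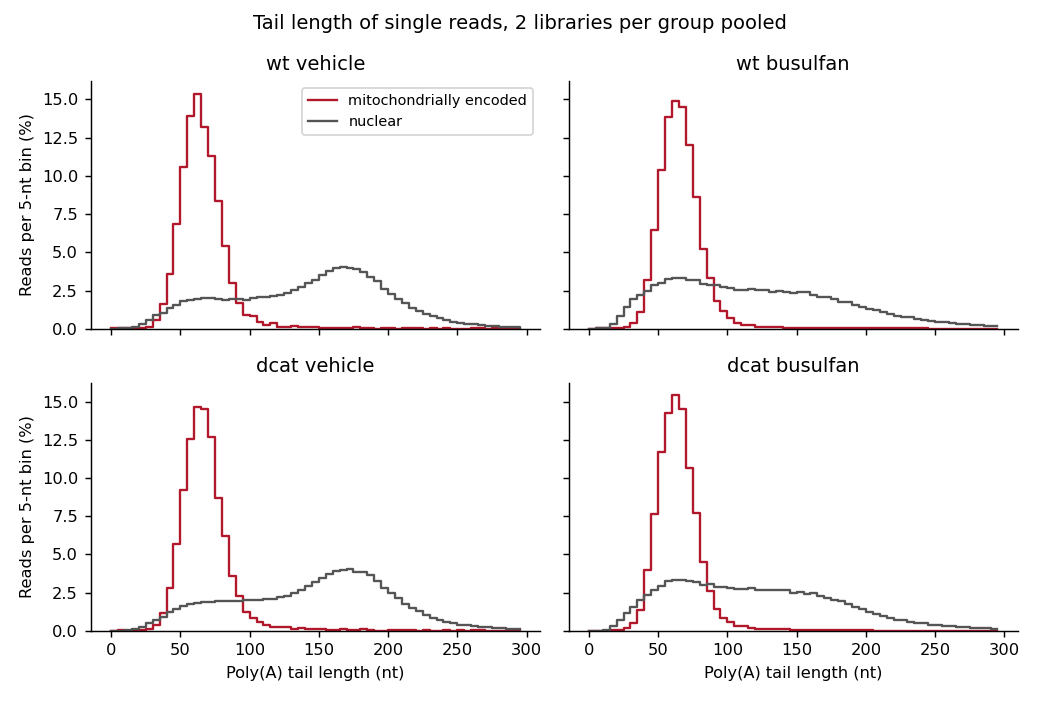
Poly(A) tail length of single reads, in percent of reads per 5-nt bin, for mitochondrially encoded (red) and nuclear (grey, pseudogene contigs included) transcripts in the 4 groups, with the 2 libraries of a group pooled. The highest red bin is 60 to 65 nt in all groups, while the highest grey bin lies at 165 to 170 nt or 170 to 175 nt in the vehicle groups and at 65 to 70 nt after busulfan.

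Mitochondrial tails were shorter than nuclear tails in 8 of 8 libraries. The mean tail of mitochondrial reads in wt testes was 65.7 and 66.7 nt without and 66.3 and 67.1 nt with busulfan, and in dcat testes 67.7 and 69.0 nt without and 64.4 and 65.6 nt with busulfan. That of nuclear reads was 142 and 144 nt, then 120.4 and 124 nt in wt testes, and 139 and 148 nt, then 119.8 and 122 nt in dcat testes. The difference within a library was -65.9 ± 11.1 nt (SD, n = 8, exact sign-flip permutation test, two-sided p = 0.00781, the smallest that 8 libraries can give). With the pseudogene contigs counted with the members it was -66.4 ± 10.6 nt. For the members alone the difference was -78.9 to -71.0 nt in the vehicle and -56.9 to -54.2 nt in the busulfan libraries. The mitochondrial means stayed between 64.4 and 69.0 nt over the 8 libraries, so that most of this change lay in the nuclear means.

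Each member was also set against single nuclear transcripts with at least 10 reads in each library. All 10 members that met this minimum had a shorter mean tail (53.6 to 73.4 nt) than every one of the 325 nuclear transcripts other than the 4 pseudogene contigs, whose range was 82.8 to 207 nt. Their tails also varied less from read to read, with an SD of 16.4 to 22.7 nt, beside 42.5 to 76.6 nt for the nuclear transcripts. Divided by the mean tail, the SD was 0.244 to 0.342 for the members and 0.275 to 0.597 (median 0.477) for the nuclear transcripts, so that on this scale the sets overlapped. Between libraries the mean of a member moved by 3.96 to 6.42 nt, beside a median range of 42.4 nt and a lowest range of 10.7 nt among the nuclear transcripts. The range between libraries also depends on the number of reads, and the part of read depth in it was not tested. The 4 pseudogene contigs lay close to the members, with an SD over reads of 19.4 to 21.2 nt and mean tails that reached 73.9 nt for Gm28437, just above mt-Co3. The library means of Gm10925 moved by 8.09 nt. Over all reads their mean tails were 60.8 nt (Gm28661), 69.3 nt (Gm10925), 72.1 nt (Gm29216) and 73.5 nt (Gm28437). Their mitochondrial counterparts had means of 59.6 nt (mt-Co2), 69.1 nt (mt-Atp6), 70.7 nt (mt-Co1) and 73.3 nt (mt-Co3) over all reads.

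**Figure D4:**
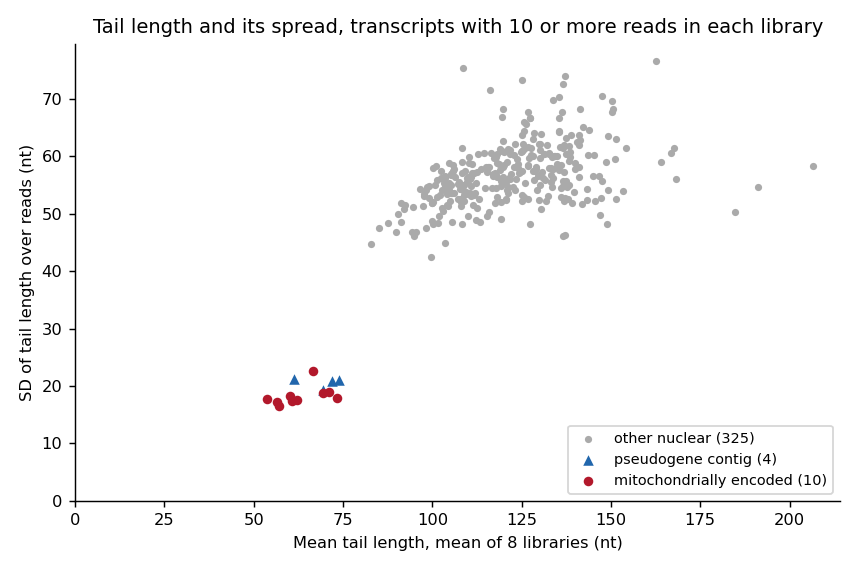
SD of the tail length over reads (nt) against the mean tail (mean of 8 libraries, nt) for 10 mitochondrially encoded transcripts (red), 4 pseudogene contigs (blue triangles) and 325 other nuclear transcripts (grey) with 10 or more reads in each library. The red and blue points lie at SDs of 16.4 to 22.7 nt and the grey points at 42.5 nt or more.

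Within this narrow range the members kept an order. From the longest to the shortest mean of the 8 library means, it ran mt-Co3 (73.4 ± 2.12 nt, SD, n = 8), mt-Co1 (71.0 ± 1.50), mt-Atp6 (69.3 ± 2.11), mt-Cytb (66.5 ± 2.01), mt-Nd3 (62.0 ± 1.60), mt-Co2 (60.6 ± 2.24), mt-Nd2 (60.2 ± 1.56), mt-Nd5 (59.1 ± 3.01), mt-Nd4 (57.2 ± 1.23), mt-Nd1 (56.6 ± 1.29) and mt-Nd6 (53.6 ± 2.30). Of the 55 pairs, 48 differed at an adjusted p under 0.05 by the exact sign-flip permutation test over 8 libraries, and 44 had the same order in all 8. The first 4 each differed from their next neighbour, by 2.44 ± 0.904 nt for mt-Co3 over mt-Co1, 1.63 ± 0.871 nt for mt-Co1 over mt-Atp6, 2.86 ± 1.48 nt for mt-Atp6 over mt-Cytb and 4.49 ± 1.79 nt for mt-Cytb over mt-Nd3 (exact permutation adjusted p = 0.00977 each). Neighbours that did not differ beyond their spread were mt-Nd3 and mt-Co2, mt-Co2 and mt-Nd2, mt-Nd2 and mt-Nd5, and mt-Nd4 and mt-Nd1. The lowest, mt-Nd6, was below mt-Nd1 by 2.97 ± 2.31 nt in 8 of 8 libraries. As stated above, reads of mt-Nd6 cannot be told apart from those of antisense RNA.

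The order followed the complexes in part. The 6 complex I members had means of 53.6 to 62.0 nt, and mt-Co3, mt-Co1, mt-Atp6 and mt-Cytb lay above them at 66.5 to 73.4 nt. Of the complex IV members, mt-Co2 was 12.8 nt below mt-Co3 and lay among the complex I members. A relation of the tail to complex or to the form of the stop codon was not tested. The members that end in a lone T were at the top (mt-Co3), in the upper part (mt-Cytb) and near the bottom (mt-Nd4). The pair whose stop codon runs into a transfer RNA gene of the same strand, mt-Nd2 and mt-Nd1, lay at 60.2 and 56.6 nt. Reads of mt-Co1 had a median of 68.6 nt with quartiles at 61.1 and 76.9 nt, and reads of mt-Nd1 a median of 54.0 nt with quartiles at 47.5 and 61.5 nt. Thus the lower quartile of the one lay close to the upper quartile of the other.

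**Figure D5:**
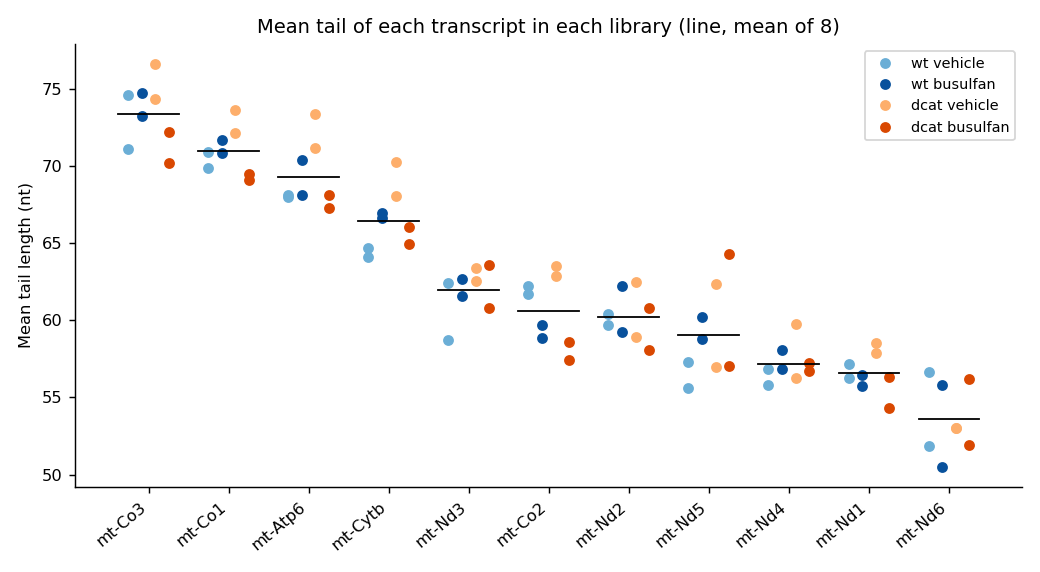
Mean tail length (nt, axis not from 0) of each mitochondrially encoded transcript in each of the 8 libraries (points, coloured by group) with the mean of the 8 (line), ordered from mt-Co3 at 73.4 nt to mt-Nd6 at 53.6 nt. For mt-Co2 the 4 busulfan points, 57.5 to 59.7 nt, lie below the 4 vehicle points, 61.7 to 63.5 nt.

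How the tail of each member responded to busulfan was tested with limma on the mean tail per library. In wt testes 0 of 10 members were called (differences of -2.68 to 2.40 nt, 0 at an unadjusted p under 0.05), while 34.9% of the 527 transcripts tested were called shorter and 0.759% longer, with a median of -19.9 nt. In dcat testes 2 of 10 were called shorter, beside 29.7% of 441 transcripts called shorter and 0.227% longer, with a median of -17.2 nt. These were mt-Co2 and mt-Co1. The mt-Co2 means were 63.5 and 62.9 nt in dcat vehicle and 57.5 and 58.6 nt in dcat busulfan libraries. They differed by -5.17 nt (SE 1.50, adjusted p = 0.0283). In wt they were 61.7 and 62.2 nt against 58.9 and 59.7 nt (-2.68 nt, SE 1.69, adjusted p = 0.239). The mt-Co1 means were 72.1 and 73.6 nt in dcat vehicle and 69.1 and 69.5 nt in dcat busulfan libraries (-3.60 nt, SE 1.13, adjusted p = 0.0396). Both calls were lost without each of the 4 dcat libraries in turn and without the trend in limma, 1 was lost without wt vehicle replicate 1 and with median tails, and with each library centred on its median transcript the sign turned. On that centred scale 10 of 10 members were called longer after busulfan in each genotype (18.0 to 26.4 nt), beside 10.6% of transcripts in wt and 11.1% in dcat. The member mt-Nd5 had too few reads in the vehicle libraries to be tested.

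Between genotypes 0 of 10 members were called after vehicle (-1.22 to 4.78 nt, 1 at an unadjusted p under 0.05) and 0 of 11 after busulfan (-2.78 to 1.14 nt, 0 at an unadjusted p under 0.05) by limma. Of all transcripts tested, 0.139% and 1.35% were called in these comparisons. For the interaction of genotype and busulfan it was 0 of 10 members (1 at an unadjusted p under 0.05), beside 0.885% of transcripts. Over all mitochondrial reads, the mean tail of dcat was 2.12 nt above wt after vehicle. After busulfan the difference was -1.65 nt, and it became -0.840 nt with members weighted equally and -0.651 nt relative to the nuclear mean. The 2 libraries of each genotype did not overlap in either case, and the exact permutation test gave its smallest possible p, 0.333, in both.

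The mitochondrial reads weighed on the tail profile of the whole library. They were 12.5% to 14.7% of all reads with tails of 30 to 120 nt in the vehicle libraries and 24.5% to 26.3% in the busulfan libraries. With them included, the mean tail of a library differed by -25.9 nt after busulfan in wt and by -26.7 nt in dcat. Without them the differences were -21.2 nt and -22.2 nt. Including these 11 transcripts thus added -4.77 nt to the difference in wt and -4.56 nt in dcat. Among nuclear reads alone, the share with tails of 30 to 120 nt was 29.9% to 36.7% in vehicle and 49.3% to 53.2% in busulfan libraries. In all these values the pseudogene contigs stayed among the nuclear reads.

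Respiratory complexes also need nuclear-encoded subunits, so these were examined by list. Of 77 such genes read (32 of complex I, 4 of II, 8 of III, 15 of IV and 18 of V), 25 rose and 5 fell after busulfan in wt, and 18 rose and 4 fell in dcat. The median log2 fold changes were 0.58 and 0.55, beside 0.09 and 0.14 for all transcripts. Of all transcripts, 35.4% were called higher and 38.3% lower in wt, and 31.3% and 31.4% in dcat, so that rises were no more frequent in this list than among all transcripts. The summed reads of these genes made up 2.80% ± 0.0357 of wt libraries after vehicle and 3.77% ± 0.0813 after busulfan, and 3.07% ± 0.326 and 3.70% ± 0.129 of dcat libraries (SD, n = 2). Per nuclear-encoded read the wt libraries had 1.74 and 1.59 mitochondrial reads after vehicle and 4.01 and 3.99 after busulfan, and the dcat libraries had 1.84 and 1.55, then 4.48 and 3.69. The ratio was higher in all 4 busulfan libraries (exact permutation p = 0.333 in each genotype, the smallest possible).

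Genes of complex IV moved both ways. In wt, Cox6a1, Cox6b1, Cox7b, Cox8a and Ndufa4 rose, by log2 fold changes of 1.49, 2.23, 3.11, 2.25 and 1.80, and Cox6b2, Cox7b2, Cox8c and Cox7a2 fell (-3.24, -3.94, -4.09 and -1.19). Cox6b2, Cox7b2 and Cox8c are the testis forms of their subunits. In dcat, 4 of the same 5 rose, Cox6a1 being the exception, and the same 4 fell. These names, other than Cox7b2 and Cox8c, were chosen after their values were seen. After busulfan Cox7b2 and Cox8c were higher in dcat than in wt (2.29, SE 0.62, and 1.99, SE 0.54, edgeR adjusted p = 0.0282 and 0.0299), as was Cyct, the testis form of cytochrome c (3.76, SE 1.10, adjusted p = 0.0447). These 3 calls were lost by DESeq2 and without each of 5 libraries in turn, and without dcat busulfan replicate 2 the values were 0.95, 0.39 and 1.31. In wt, busulfan lowered Cyct by a log2 fold change of -5.43 (SE 0.91), and raised Cycs, the form of other tissues, by 2.87 (SE 0.40). The best read gene of each complex gave -0.87 (SE 0.39) for Ndufc1 of complex I, 1.01 (SE 0.42) for Sdhb of complex II, -0.26 (SE 0.37) for Uqcrq of complex III, 0.47 (SE 0.33) for Cox6c of complex IV and 0.68 (SE 0.35) for Atp5f1b of complex V in wt. Of these, Ndufc1 and Sdhb were called, and both calls were lost by DESeq2 and in several fits with 1 library left out. Without wt vehicle replicate 2, Ndufc1 was at -0.15, and Cox6c (0.99) and Atp5f1b (0.98) became called. The tails of the nuclear-encoded genes averaged 126 ± 3.86 nt in wt testes given vehicle and 109 ± 3.14 nt in those given busulfan. Of the 43 such genes with enough reads in wt, 12 were called shorter and 0 longer by limma, beside the 34.9% of all transcripts tested that were called shorter.

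Of 28 gene symbols listed for the synthesis and handling of mitochondrial RNA, synonyms included, 3 were read deeply enough to be in the table. Tfam, a transcription factor of the mitochondrial genome, fell, with log2 fold changes of -3.40 (SE 0.73) in wt and -2.25 (SE 0.57) in dcat. These values are those of its most read transcript, and isoforms of Tfam were not examined. Slirp and Lrpprc, which form a complex that binds mitochondrial messenger RNAs, had log2 fold changes of -0.28 (SE 0.44) and 0.60 (SE 0.67) for wt, then 0.02 (SE 0.44) and 1.39 (SE 0.61) for dcat, and neither was called. Mtpap was not among the transcripts analysed here.

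The nuclear transcripts whose pattern over the 8 libraries was most like that of the summed members were sought among 329 with at least 10 reads in each library, by Pearson r of log2(CPM + 1). They were Gstm2 (r = 0.997), Gm10925 (0.997), Clu (0.995), Cycs (0.995) and Ptgds (0.993). One of them, Gm10925, is the copy of mt-Atp6 described above. The 8 points fall into vehicle and busulfan libraries, and r is given as a description of these libraries. Gstm2, a glutathione transferase, was at 651 mean CPM after vehicle and 3830 after busulfan in wt testes, and at 727 and 3932 in dcat testes. Clu, a secreted chaperone and Sertoli cell marker, averaged 1201 and 12335 CPM in wt testes and 1512 and 10482 CPM in dcat testes, with log2 fold changes of 3.36 (SE 0.34) in wt and 2.83 (SE 0.34) in dcat. The tails of Clu averaged 192 nt and those of Gstm2 109 nt over all reads.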

How the data were processed

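Poly(A) RNA from 8 testes was sequenced directly (Nanopore kit SQK-RNA002, 2 multiplexed libraries with 4 barcoded extracts each). Reads were basecalled by the authors using Guppy and mapped onto GENCODE mouse transcripts using minimap2 (GRCm38; the submitters' processing notes name minimap2 2.20-r1061, mm10, SAMtools and DESeq2), demultiplexed with Deeplexicon and measured tails with Nanopolish. The deposited table of raw read counts per transcript and the deposited table of tail lengths per read, in nucleotides, were used. Deposited log2 fold changes and p-values of the authors' own comparisons were not used. Shares, CPM and log2 values were computed here from the deposited counts.

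Counts of all 2783 transcripts of the deposited table were fitted without a further filter by edgeR 4.0.16 in R 4.3.3 (TMM, quasi-likelihood F test, 8 libraries as 4 groups). DESeq2 1.42.0 was the alternative. The paper describes an earlier filter, which kept contigs with at least 10 reads in at least 2 replicates of 1 condition. Percentages of all transcripts refer to those in the deposited table. Mean tails per transcript and library, with at least 10 reads in each library of a contrast, were fitted by limma 3.58.1 (trend on log2 mean reads). Tests were two-sided with Benjamini-Hochberg adjustment over all transcripts tested, threshold 0.05. Values per library were compared by exact permutation tests. Both fits were checked on simulated data. In a simulation of busulfan against vehicle in wt, edgeR recovered 100% of 50 rises and 84% of 50 falls of 2 log2 units, but 30% and 16% of those of 1 log2 unit. In that of tails over 339 transcripts, limma recovered 76% of differences of 40 nt in either direction. The simulated SD over reads was common to all transcripts and larger than that of any member. Differences as small as those of the members were not simulated, so recovery for the members is not known. P-values measure the spread between 2 mice per group. The paper describes 2 multiplexed libraries, each with 1 mouse of every condition. The labels give replicate numbers only, and equal numbers were taken to share a run. Deviations of equal numbers correlated between groups at r = -0.24 to 0.29 over 339 transcripts, and the fit with this block is given as an alternative.

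Sequences came from RefSeq (GRCm38.p6), and 2738 of 2783 transcripts were found in GENCODE vM21. Deposited transcripts were aligned to the mitochondrial genome with BLAST+ 2.17.0 (at least 200 bases). The named genes are all members, the 5 nuclear transcripts most correlated with them, the best read gene of each pathway list and list genes that differed between genotypes. Members and lists were chosen with earlier results of these data known.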

Additional observations from a re-analysis of the deposited data

Results flagged for a closer look

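The change of the mean tail of all mitochondrial reads after busulfan had opposite signs in the 2 genotypes. Between libraries of the same replicate number it rose by 0.513 and 0.364 nt in wt and changed by -3.28 and -3.39 nt in dcat, a difference of -3.77 nt between genotypes. The difference of this mean was not tested. For single members, limma called the interaction for 0 of 10 (mt-Co1 at an unadjusted p under 0.05). The wt libraries overlapped between treatments, and the wt sign turned without wt vehicle replicate 1 (-0.0488 nt) and without mt-Co1 (-0.354 nt).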

How the results depend on the processing

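The rise of the members after busulfan by edgeR kept its direction for 11 of 11 members in both genotypes under each alternative run, with 9 to 11 called in wt and 8 to 11 in dcat when 1 library was left out. The share of mitochondrial reads rose by 12.9 points in wt and 12.2 in dcat as a ratio to nuclear reads, by 11.6 in wt without the 20 most read nuclear transcripts, and by 11.7 in wt with the pseudogene contigs added, an alternative chosen after seeing the data. With 1 library left out it rose by 10.1 to 10.7 in wt and 8.74 to 10.9 in dcat. The genotype difference in share turned to 0.00608 (ratio) and 0.146 (pseudogene contigs) after busulfan. With 1 library left out it was -0.269 to 1.43 after vehicle and -1.10 to 1.09 after busulfan, 0.274 being the value without wt busulfan replicate 1.

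The mean mitochondrial tail after busulfan in wt was -0.354 nt without mt-Co1, 21.6 nt relative to the nuclear mean, and -0.0488 to 0.925 nt with 1 library left out. In dcat it was -2.29 nt with members weighted equally and 18.8 nt relative to the nuclear mean. The genotype difference after busulfan became -0.840 and -0.651 nt in these settings. By limma, 10 members in wt and 10 in dcat were called with libraries centred. In dcat, 1 was called with median tails, 0 without the trend, and 0 to 2 with 1 library left out. With libraries centred, signs turned for mt-Nd1 (23.3 nt), mt-Co2 (21.3 nt) and mt-Nd6 (22.9 nt) in wt, and in dcat for mt-Nd1 (20.3 nt), mt-Nd2 (21.9 nt), mt-Co1 (19.6 nt), mt-Co2 (18.0 nt), mt-Atp6 (18.6 nt), mt-Co3 (18.9 nt), mt-Nd3 (22.4 nt), mt-Nd4 (22.1 nt) and mt-Cytb (19.5 nt). Centring sets the median transcript, which was shorter after busulfan, to 0. With the replicate number as a block, the counts of members called stayed at 11 and 10 by edgeR and 0 and 2 by limma for busulfan in wt and dcat. Other causes were not tested. Depth limits mt-Nd5, with 5 to 51 reads per library.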
